A study of Homo sapiens with 12 samples.

Results

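The genes described here were the expressed solute carrier (SLC) transporters, measured by bulk RNA sequencing along the path from human embryonic stem cells to blood progenitors. They were chosen by level. A gene was taken when its symbol was SLC, a family number, the letter A and a member number, and when its mean over the 3 libraries of at least 1 stage was 10 FPKM or more (FPKM, fragments mapped per unit of transcript length and of library size). SLC2A1, SLC2A3, SLC4A1, SLC25A37 and SLC25A38 were left out by name. The table held 334 symbols of this form among 56593 distinct symbols, and 329 of them were eligible. 78 passed. The pattern does not take families written with another letter, such as SLC35B or SLCO.

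The 12 libraries came from 4 stages with 3 libraries each. Undifferentiated H1 cells, a human embryonic stem cell line, were the starting point. APLNR+ cells, which carry the apelin receptor of early mesoderm, came from day 2 of differentiation in activin A and BMP4. CD31+CD34+ cells, called hemogenic endothelial cells in the study, came from day 5, and CD43+ hematopoietic progenitor cells from day 8, both after a change of medium to VEGF and bFGF. All 4 stages shared 1 line with no genetic change, in chemically defined medium. The labels do not say whether the 3 libraries of a stage came from separate cultures, and the study's methods mention independent experiments in general without tying them to these libraries, so p-values measure the spread between these libraries, which may be technical. In bulk RNA, fewer cells that use a gene and less RNA of it per cell cannot be told apart.

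SLC proteins are membrane transporters that carry nutrients, ions, metals and metabolites across the plasma membrane or the membranes of organelles. Most run on the gradient of their substrate or of an ion that travels with it, without splitting ATP themselves. The SLC25 family sits in the inner membrane of mitochondria and links metabolism there to the cytosol, while the SLC7, SLC38 and SLC1 families feed cells with amino acids. Dividing blood progenitors are known to need amino acids, iron, zinc, phosphate and nucleosides, and glycolytic cells export lactate through SLC16 proteins.

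Values given over the 4 stages are stage means in the order of differentiation, H1 first and CD43+ last. The sorted surface genes were at the levels their labels name. APLNR was at 0.528, 383, 403 and 23.7 FPKM over the 4 stages, so it was as high in CD31+CD34+ as in APLNR+ cells. PECAM1 (CD31) and CD34 were at 55.2 and 47.7 FPKM in CD31+CD34+ cells against 0.0997 and 0.981 FPKM in APLNR+ cells, and SPN (CD43) was at 75.5 FPKM in CD43+ cells against 3.70 FPKM in CD31+CD34+ cells. PECAM1 and CD34 were still at 95.9 and 22.2 FPKM in CD43+ cells. The 6 pluripotency markers summed to 2093 to 2193 FPKM in H1 libraries and to 151 to 178 FPKM in CD43+ libraries. The CD43+ libraries carried RNA of more than 1 lineage. In them the 7 erythroid markers summed to 1774 to 2274 FPKM, the 5 megakaryocyte markers to 638 to 672 FPKM, the 6 endothelial markers to 239 to 317 FPKM and the 6 myeloid markers to 30.1 to 33.1 FPKM, with CD14 and MPO near 0 at 0.0465 and 0.0515 FPKM. The same sums were 25.5 to 28.8, 9.88 to 15.1, 573 to 807 and 1.46 to 2.60 FPKM in CD31+CD34+ libraries. The 6 mesoderm markers summed to 175 to 220 FPKM in APLNR+ libraries and to under 33 FPKM elsewhere. Endoderm and cardiac muscle markers reached at most 51.4 and 127 FPKM as sums, in CD31+CD34+ and APLNR+ libraries. Libraries of replicate 1 were the shallowest of each stage, at relative depths of 0.551 to 0.747 where the last CD43+ library is 1. Each call of a member had the same direction in replicate 1 as in the mean of replicates 2 and 3. The calls were made with replicate 1 included, so this was largely set by the selection and says little about depth. An exact 0 in this table need not mean no RNA. The gene of the translation factor EEF1A1 stood at 0 in 6 libraries, and SLC25A6 stood at 0 in all 12 and was no member.

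Of the 78 members, 33 reached 10 FPKM in every stage, 13 in 3 stages, 16 in 2 and 16 in 1 stage alone. By substrate they comprised 16 mitochondrial carriers, 15 amino acid transporters, 15 metal transporters, 9 carriers of vitamins, choline, lipids or heme, 7 of nucleosides, nucleobases or nucleotide sugars, 7 of inorganic ions, 4 of sugars, 3 of monocarboxylates and organic ions and 2 of creatine and taurine. The members just inside the limit were SLC7A1 at 10.8 FPKM, SLC1A3 at 10.9 FPKM, SLC39A8 at 10.9 FPKM and SLC25A25 at 10.97 FPKM in their highest stage. Just outside it were SLC25A46 at 9.98 FPKM, SLC6A9 at 9.94 FPKM, SLC33A1 at 9.90 FPKM and SLC37A4 at 9.78 FPKM. Of the 251 eligible genes below the limit, 118 had a highest stage mean from 1 to under 10 FPKM and 133 stayed under 1 FPKM, 15 of them at 0 in all libraries.

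The highest stage mean fell in CD31+CD34+ cells for 27 members, in H1 cells for 21, in CD43+ cells for 18 and in APLNR+ cells for 12. The lowest fell in CD43+ cells for 28, in APLNR+ cells for 26, in H1 cells for 18 and in CD31+CD34+ cells for 6. Levels chose the members, so these counts are a description.

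**Figure D1:**
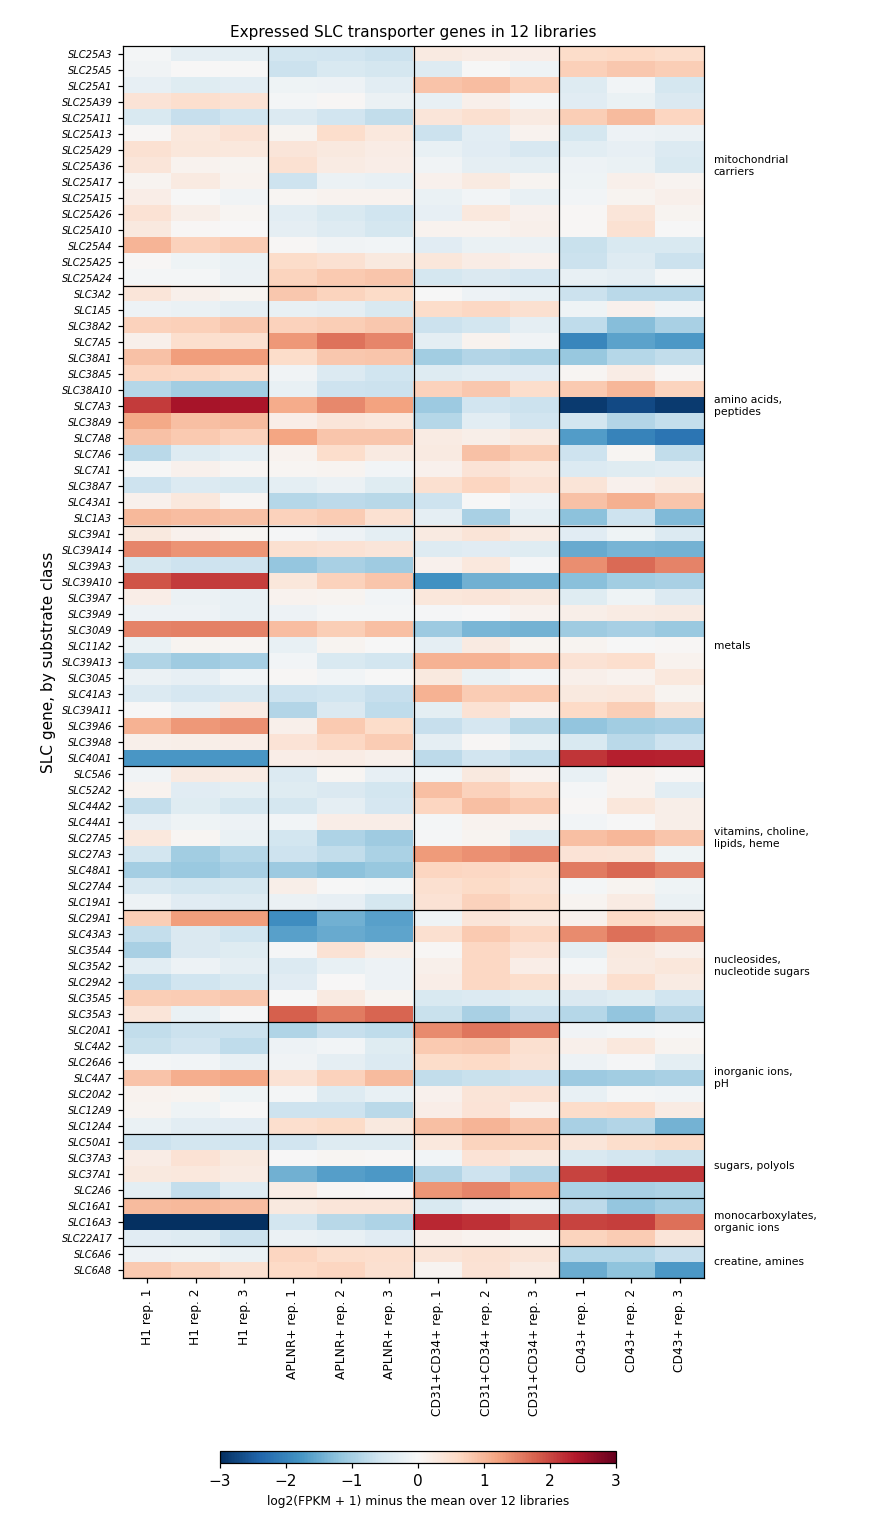
Each row is 1 member SLC gene, 1 of the 78 being left out, grouped by substrate class and ordered by mean level within a class, and each column is 1 of the 12 libraries. Colour gives log2(FPKM + 1) minus the gene's mean over the 12 libraries, and colours end at 3 in either direction. SLC7A3 runs from the highest values in H1 libraries to the lowest in CD43+ libraries, while SLC16A3 is lowest in H1 libraries and high in all CD31+CD34+ and CD43+ libraries.

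Each step was tested with limma on log2(FPKM + 1), over the 14840 genes at 1 FPKM or more in at least 3 libraries, and all 78 members were among them. Calls of raised or lowered required an adjusted p (Benjamini-Hochberg) below 0.05 together with a 2-fold change or more. Because a member can owe its place to the higher of the stages compared, an adjusted p is printed only where it also reached 10 FPKM in some other stage, which held for 70 of the 78 members at each comparison. For the others the values stand with no test, and such calls numbered 1, 3, 4 and 6 in the comparisons in the order given here.

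From H1 to APLNR+ cells, 4 members were called raised and 4 lowered, or 10.3% of the 78. Among all genes tested 15.9% were called, 8.3% raised and 7.62% lowered. Among the 7718 genes that met the same 10 FPKM limit 16.1% were called, 8.73% raised and 7.32% lowered. At the second step, into CD31+CD34+ cells, 14 members were raised and 11 lowered, or 32.1%, where 29.6% of all genes and 38.6% of genes at the same limit were called. The shares raised and lowered were 12.5% and 17.1% of all genes, and 17.4% and 21.2% of genes at the same limit. At the third step, into CD43+ cells, 6 were raised and 12 lowered, or 23.1%, where 14.4% of all genes were called, 5.58% raised and 8.79% lowered, and 17.6% of genes at the same limit, 6.35% raised and 11.2% lowered. From H1 to CD43+ cells, 12 were raised and 17 lowered, or 37.2%, where 37.1% of all genes were called, 14.6% raised and 22.5% lowered, and 42.5% of genes at the same limit, 17.6% raised and 24.9% lowered. The members were thus called at shares near those of other genes, with the last step somewhat above and the first step somewhat below them. These comparisons share libraries and are not independent of each other. The shares over all genes given here are the reference for counts of classes and related gene lists below that carry no share.

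The median change of the members on the log2 scale was -0.08 at the first step, where the median was -0.12 over all genes and -0.16 over genes at the same limit. It was 0.34 from APLNR+ to CD31+CD34+ cells, against -0.01 over all genes and 0.12 over genes at the same limit. It was -0.21 from CD31+CD34+ to CD43+ cells, against 0.00 as rounded over all genes and -0.01 over genes at the same limit. It was -0.04 from H1 to CD43+ cells, against -0.10 over all genes and -0.03 over genes at the same limit. Upper-quartile scaling turned the first of these to 0.02 and the last to 0.07. 36 members were called at no comparison, and 2 members, SLC7A3 and SLC7A5, were called at each of the 3 steps.

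**Figure D2:**
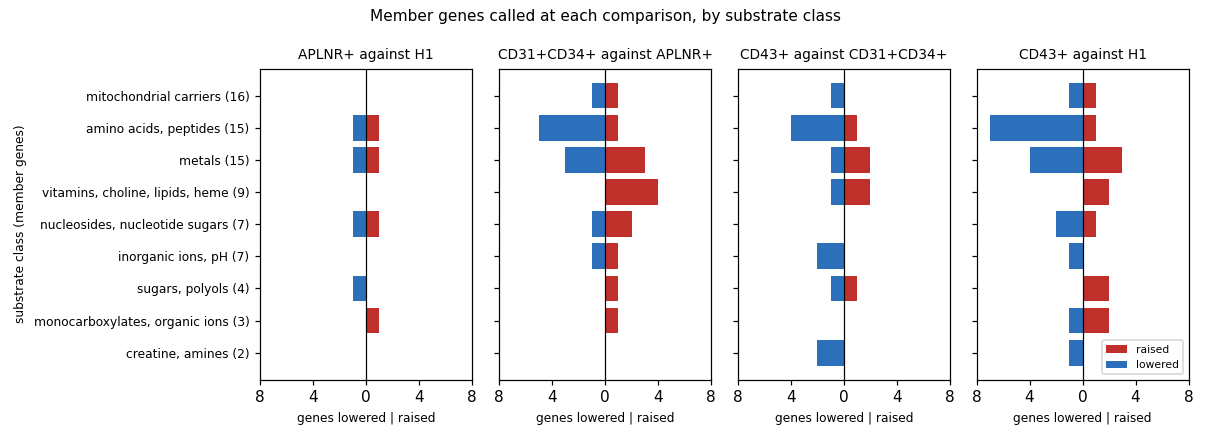
Bars give the number of member genes called raised (right, red) or lowered (left, blue) in each substrate class at each of the 4 comparisons, and the number in brackets is the size of the class. Amino acid transporters account for 5 of the 11 members lowered at the second step and for 7 of the 17 lowered from H1 to CD43+ cells.

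Of the 15 amino acid transporters, 5 were lowered and 1 raised at the second step, 4 lowered and 1 raised at the third, and 7 lowered and 1 raised between H1 and CD43+ cells. The lowered members made up 33.3%, 26.7% and 46.7% of the class, where 21.2%, 11.2% and 24.9% of genes at the same limit were lowered, and 17.1%, 8.79% and 22.5% of all genes. At the first step 1 was raised and 1 lowered. Their median log2 change from H1 to CD43+ cells was -0.95, and their summed level was 530, 555, 392 and 279 FPKM over the 4 stages.

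SLC7A3, a carrier of arginine and lysine, fell at every step. It was at 37.9, 49.8 and 48.5 FPKM in the H1 libraries and at 18.8, 23.8 and 20.1 FPKM in APLNR+ libraries. It was at 3.26, 5.11 and 4.78 FPKM in CD31+CD34+ libraries and at 0.242, 0.400 and 0.237 FPKM in CD43+ libraries. No library of one stage overlapped the next. The log2 changes at the 3 steps were -1.08 (SE 0.15, adjusted p = 7.86e-05), -2.03 (SE 0.15, adjusted p = 1.97e-07) and -2.04 (SE 0.15, adjusted p = 3.56e-07). The first step lay close to the 2-fold limit and was not called under upper-quartile scaling (-0.98) or quantile normalization (-0.95). Its sister SLC7A1, the general carrier of the same amino acids, ranged only from 6.44 to 10.8 FPKM in stage means and was not called.

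SLC7A5 (LAT1), which imports leucine and other large neutral amino acids, rose first and then fell. It was at 28.4, 36.2 and 35.9 FPKM in H1 libraries and at 63.9, 80.5 and 71.5 FPKM in APLNR+ libraries, a log2 change of 1.08 (SE 0.14, adjusted p = 3.99e-05). It then stood at 20.3, 27.5 and 23.6 FPKM in CD31+CD34+ libraries and at 5.79, 7.60 and 7 FPKM in CD43+ libraries. The falls were -1.56 (SE 0.14, adjusted p = 9.48e-07) and -1.67 (SE 0.14, adjusted p = 1.08e-06). The rise was just over 2-fold, and without H1 replicate 1 it was 0.97 and lost its call, as it did without APLNR replicate 2 (0.999). SLC3A2 (4F2hc), the heavy chain that LAT1 and related carriers need to reach the membrane, was the highest of the class and followed the same order, at 122, 171, 96.4 and 62.4 FPKM in stage means. It stayed within 2-fold at each comparison. The ratio of SLC7A5 to SLC3A2 was 0.279 ± 0.060, 0.425 ± 0.072, 0.249 ± 0.048 and 0.110 ± 0.021 (SD, n = 3) over the 4 stages.

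SLC7A8 (LAT2), another light chain partner of SLC3A2, fell later. Its libraries lay at 20.1 to 23.4 FPKM in H1, 22.3 to 28.9 FPKM in APLNR+ and 13.9 to 14.8 FPKM in CD31+CD34+ cells, then at 3.08, 2.27 and 1.86 FPKM in CD43+ cells. The last step was -2.20 (SE 0.14, adjusted p = 6.79e-08). SLC7A6 (y+LAT2) was lowered at the same step by 1.07 on the log2 scale, from 19 to 8.68 FPKM, though it had been at 8.08 FPKM in H1 cells.

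The sodium-coupled SLC38 carriers of glutamine and alanine divided by member. The H1 libraries held SLC38A1 at 44.1, 57.4 and 57.4 FPKM, and the APLNR+ libraries at 35.0, 41.8 and 42.6 FPKM. It was at 10.9, 12.2 and 11.6 FPKM in CD31+CD34+ libraries, a fall of 1.69 on the log2 scale from APLNR+ cells (SE 0.13, adjusted p = 2.95e-07). SLC38A2 was level at 83.4 and 83.3 FPKM in the first stages and fell to 35.3 FPKM in CD31+CD34+ cells (-1.22, SE 0.13, adjusted p = 4.25e-06). SLC38A10 went the other way. Its libraries were at 7.26 to 8.53 FPKM in H1, 9.91 to 13.6 FPKM in APLNR+, 23.7 to 28.9 FPKM in CD31+CD34+ and 26.1 to 33.0 FPKM in CD43+ cells, and it rose by 1.79 from H1 to CD43+ cells (SE 0.13, adjusted p = 1.06e-07). SLC38A9, the arginine-responsive carrier of lysosomes, was lowered from 29.5 FPKM in H1 to 8.34 FPKM in CD43+ cells.

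Of the rest of the class, SLC1A5 (ASCT2), a main route for glutamine, had its highest libraries in CD31+CD34+ cells, at 103, 108 and 98.3 FPKM against 50.9 to 59.6 FPKM in APLNR+ libraries. This was under 2-fold (0.87, SE 0.09, adjusted p = 4.41e-06). The glutamate carrier SLC1A3 was lowered by 1.14 from APLNR+ to CD31+CD34+ cells, from 8.68 to 3.47 FPKM. SLC43A1 (LAT3) was at 13.3, 15.3 and 12.8 FPKM in CD43+ libraries and at 4.03, 6.76 and 6.03 FPKM in CD31+CD34+ libraries, with no test because the CD43+ level made it a member. Without CD31CD34 replicate 1 its difference was just under 2-fold (0.998).

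Genes that respond to amino acid shortage or make serine were read beside the carriers. Of 11 such genes all 11 were tested. At the first step 1 was raised, at the second 1 was raised and 3 lowered, at the third 4 were lowered, and between H1 and CD43+ cells 2 were raised and 4 lowered. ASNS, asparagine synthetase, had the same order of stage means as SLC7A5, at 30.3, 66.8, 11.9 and 1.86 FPKM. Its changes at the 3 steps were 1.11 (SE 0.30, adjusted p = 0.00766), -2.40 (SE 0.30, adjusted p = 1.66e-05) and -2.16 (SE 0.30, adjusted p = 7.87e-05). PHGDH, the first enzyme of serine synthesis, fell from 86.7 FPKM in CD31+CD34+ to 12.3 FPKM in CD43+ cells (-2.72, SE 0.07, adjusted p = 9.63e-11). TRIB3 moved otherwise, rising from 5.98 to 37.4 FPKM from APLNR+ to CD31+CD34+ cells. At the third step 4 of the 11 genes were higher and 6 lower at an unadjusted p under 0.05. MTHFD2 (0.94, SE 0.07, adjusted p = 5.35e-07) and PSPH (0.45, SE 0.08, adjusted p = 0.000351) were among those higher, each under 2-fold.

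Among carriers of monocarboxylates, the lactate transporters exchanged rank. SLC16A1 (MCT1), which moves lactate and pyruvate in either direction, stood at 115, 117 and 114 FPKM in H1 libraries, 73.6, 76.4 and 76.8 FPKM in APLNR+ libraries, 43.2, 50.5 and 51.8 FPKM in CD31+CD34+ libraries and 34.4, 26.0 and 29.1 FPKM in CD43+ libraries. Each stage lay below the one before it with no overlap. Single steps stayed within 2-fold, and the fall from H1 to CD43+ cells was 1.93 on the log2 scale (SE 0.10, adjusted p = 6.01e-09).

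SLC16A3 (MCT4), known as the lactate exporter of glycolytic cells, was at 1.51, 1.36 and 0.985 FPKM in H1 libraries and at 14, 11.3 and 10.6 FPKM in APLNR+ libraries. It was at 104, 99.4 and 85.5 FPKM in CD31+CD34+ libraries and at 88.7, 91.6 and 67.8 FPKM in CD43+ libraries. The first steps did not overlap, while the last did. The changes were 2.5 (SE 0.14, adjusted p = 2.79e-08), 2.91 (SE 0.15, adjusted p = 5.92e-09) and -0.23 (SE 0.15, adjusted p = 0.211), and the H1 to CD43+ difference, 5.19 (SE 0.15, adjusted p = 2.05e-11), was the greatest rise of any member at that comparison. The ratio of SLC16A3 to SLC16A1 was 0.0111 ± 0.0022, 0.159 ± 0.028, 2.01 ± 0.38 and 2.81 ± 0.63 (SD, n = 3) over the 4 stages, so SLC16A3 was the lower of the pair in every H1 and APLNR+ library and the higher in every later one.

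BSG (basigin), the chaperone that brings both proteins to the membrane, was at 164, 120, 312 and 233 FPKM and rose from APLNR+ to CD31+CD34+ cells (1.37, SE 0.11, adjusted p = 2.31e-07). EMB, a chaperone with a similar role, was at 12.2, 11.6, 7.37 and 4.87 FPKM. Over the 8 chaperones and sodium pump subunits read here, 1 was lowered at the first step, 2 were raised and 1 lowered at the second, and 1 was raised and 3 lowered between H1 and CD43+ cells. At the third step limma called 0, while 1 was higher and 5 lower at an unadjusted p under 0.05. The third member of the class, SLC22A17, a receptor for lipocalin, rose from 8.27 FPKM in H1 to 18.2 FPKM in CD43+ cells (1.05 on the log2 scale).

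**Figure D3:**
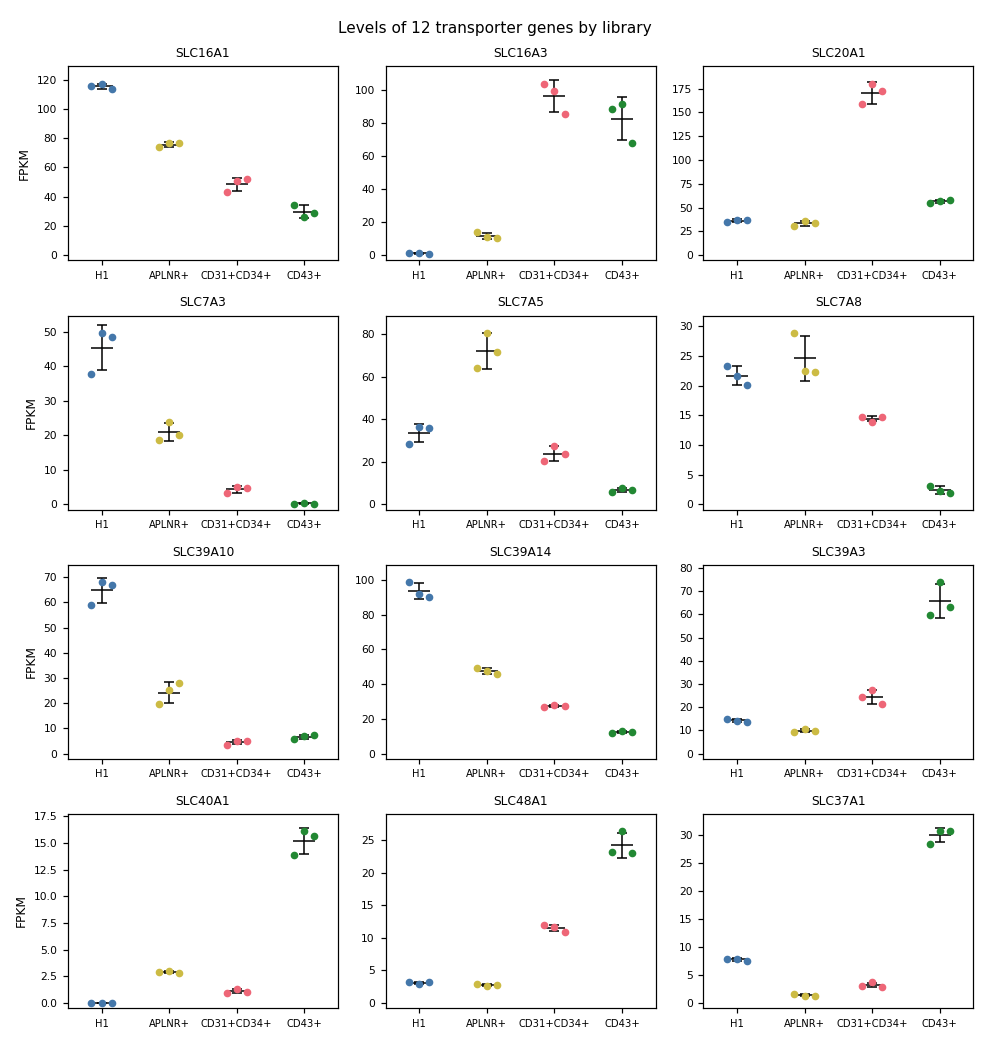
Points give FPKM in each library for 12 transporter genes, with horizontal marks at the stage mean and bars of 1 SD (n = 3). Axes are linear and differ between panels. SLC16A1 steps down while SLC16A3 steps up, SLC20A1 peaks in CD31+CD34+ libraries at 158 to 180 FPKM, and SLC40A1, SLC48A1 and SLC37A1 are highest in CD43+ libraries.

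Metal transporters changed one by one in opposite directions, and the summed level of the 15 members was 439 FPKM in H1 cells and 313, 332 and 313 FPKM in the stages after it. At the first step 1 was raised and 1 lowered, at the second 3 and 3, at the third 2 and 1, and between H1 and CD43+ cells 3 and 4. That was 13.3%, 40%, 20% and 46.7% of the class. Genes at the same limit were called at the near shares of 16.1%, 38.6%, 17.6% and 42.5%, and all genes at 15.9%, 29.6%, 14.4% and 37.1%. SLC39 (ZIP) proteins bring zinc and other metals into the cytosol, and SLC30 (ZnT) proteins take zinc out of it.

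SLC39A10, a zinc importer, was at 59.0, 68.1 and 67 FPKM in H1 libraries and at 19.6, 25 and 27.8 FPKM in APLNR+ libraries (-1.40, SE 0.14, adjusted p = 5.13e-06). It was at 3.61, 4.91 and 5.00 FPKM in CD31+CD34+ libraries (-2.19, SE 0.14, adjusted p = 6.07e-08) and at 5.81, 6.84 and 7.26 FPKM in CD43+ libraries. SLC39A6, which is known to pair with SLC39A10, was at 14.2, 17.2 and 17.9 FPKM in H1 libraries, 7.21, 11.8 and 9.78 FPKM in APLNR+, 3.16 to 4.22 FPKM in CD31+CD34+ and 2.24 to 2.71 FPKM in CD43+ libraries. It fell by 1.17 from APLNR+ to CD31+CD34+ cells (SE 0.16, adjusted p = 2.84e-05), and its other differences carry no test where H1 is the higher stage.

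SLC39A14, an importer of zinc, iron and manganese, stepped down from stage to stage. Its libraries lay at 90.4 to 98.9 FPKM in H1, 45.6 to 49.4 FPKM in APLNR+, 26.7 to 27.7 FPKM in CD31+CD34+ and 11.8 to 12.8 FPKM in CD43+ cells, with no overlap. The fall over the whole course was 2.82 on the log2 scale (SE 0.07, adjusted p = 1.33e-11). At the last step it was 1.07 and under quantile normalization 0.97 in size, just short of the limit. SLC30A9, a zinc transporter of mitochondria, kept to 23.2 to 40.4 FPKM in H1 and APLNR+ libraries and to 4.50 to 6.34 FPKM in all later ones. It fell from APLNR+ to CD31+CD34+ cells by 2.14 (SE 0.10, adjusted p = 3.58e-09).

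SLC39A3, another zinc importer, rose at the later steps. It was at 15, 13.9 and 13.8 FPKM in H1 libraries, 9.21, 10.6 and 9.90 FPKM in APLNR+ libraries, 24.2, 27.4 and 21.3 FPKM in CD31+CD34+ libraries and 59.8, 74.0 and 63.3 FPKM in CD43+ libraries. The rises were 1.21 (SE 0.11, adjusted p = 9.78e-07) and 1.40 (SE 0.11, adjusted p = 5.35e-07) at the later steps. The ratio of SLC39A3 to SLC39A10 was 0.222 ± 0.029, 0.417 ± 0.058, 5.52 ± 1.24 and 9.95 ± 1.09 (SD, n = 3) over the 4 stages. In SLC39A3, 8.84% of the 50-base stretches of its transcripts also occur in other annotated genes.

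SLC39A13, an intracellular zinc carrier, and SLC41A3, a magnesium carrier, were both highest in CD31+CD34+ cells. SLC39A13 went from 9.86 ± 1.94 FPKM in APLNR+ to 26.6 ± 1.3 FPKM in CD31+CD34+ cells (1.36, SE 0.14, adjusted p = 2.03e-06), and SLC41A3 from 6.53 ± 0.24 to 20.4 ± 2.4 FPKM (1.5, SE 0.10, adjusted p = 6.37e-08). SLC39A1, the most abundant metal carrier, was at 79.5 to 120 FPKM in stage means and not called. It is uncertain, because 55.2% of its 50-base stretches are shared with another annotated gene, AL358472.7. SLC11A2 (DMT1), which brings iron out of endosomes, had one of the smallest ranges of all members, with stage means of 17.1, 16.7, 17.9 and 17.7 FPKM. The Golgi zinc carrier SLC30A5 was at 11.6, 12.9, 13.3 and 15.3 FPKM.

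SLC40A1 (ferroportin), the iron exporter of cells, was listed at 0.00512, 0.00310 and 0 FPKM in H1 libraries, at 2.90, 2.94 and 2.77 FPKM in APLNR+ libraries, at 0.947, 1.26 and 1.06 FPKM in CD31+CD34+ libraries and at 13.8, 16.1 and 15.6 FPKM in CD43+ libraries. No stages overlapped. The rise from H1 to APLNR+ cells passed the test (adjusted p = 3.82e-09), and no fold is given against levels near 0. The CD43+ level made it a member and is untested. From CD31+CD34+ to CD43+ cells the erythroid and megakaryocyte sums given above were higher too, and their part in this level was not tested. At the first step they did not move with it, with erythroid sums of 4.02 to 9.34 FPKM in H1 and 3.72 to 6.67 FPKM in APLNR+ libraries.

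MT1X, the metallothionein with the highest level among the metal-binding genes read here, which buffers zinc, was at 90.9, 17.3, 2.02 and 8.69 FPKM in stage means. It fell by 2.33 and 2.67 at the first steps (adjusted p = 3.52e-05 and 6.01e-06) and rose by 1.68 at the last (adjusted p = 0.000516). Of the 9 tested genes of the 10 in that list, 1 was lowered at the first step, 1 raised and 1 lowered at the second, 2 raised at the third, and 1 raised and 2 lowered between H1 and CD43+ cells.

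**Figure D4:**
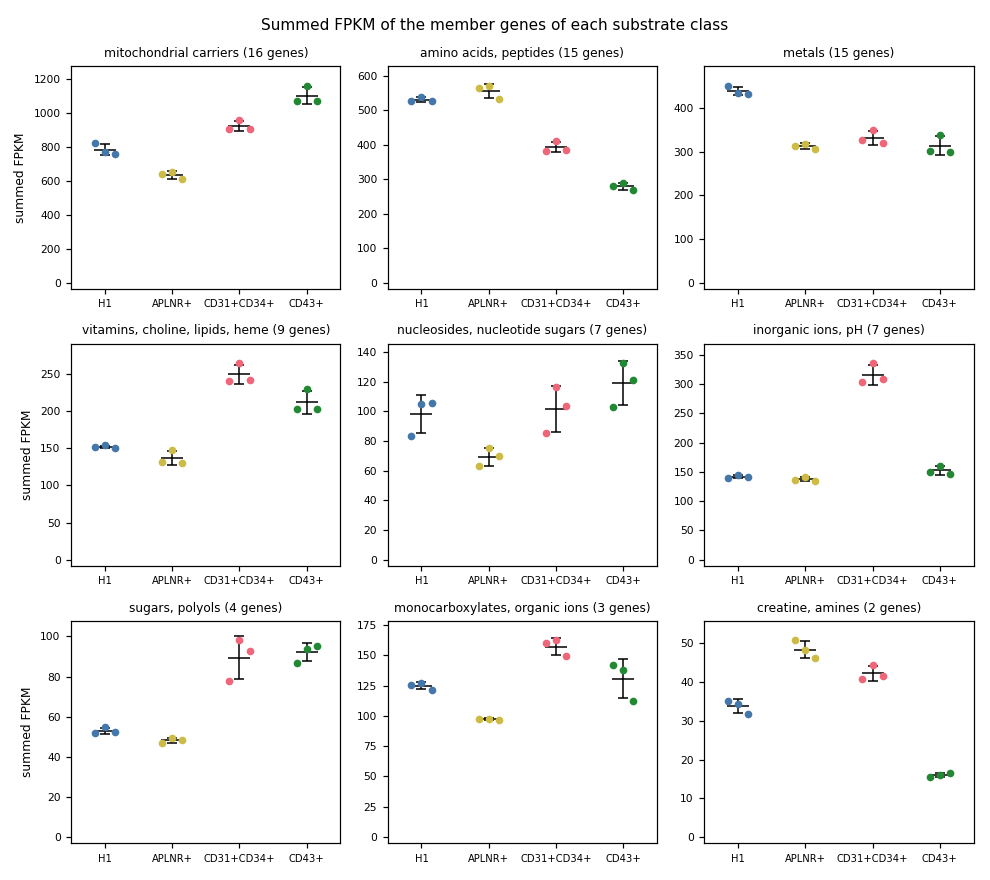
Points give the summed FPKM of the member genes of each substrate class in each library, with stage means and bars of 1 SD (n = 3), on linear axes that differ between panels. The amino acid sum is lowest in CD43+ libraries, the inorganic ion sum is highest in CD31+CD34+ libraries, and the mitochondrial sum is lowest in APLNR+ libraries.

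Mitochondrial carriers were the class with the highest sum in every stage. Of the 16 members, 1 was raised and 1 lowered at the second step, 1 was lowered at the third, and 1 was raised and 1 lowered between H1 and CD43+ cells. At the first step limma called 0, while 2 were higher and 8 lower at an unadjusted p under 0.05. The called members made up 0%, 12.5%, 6.25% and 12.5% of the class at the 4 comparisons, where 16.1%, 38.6%, 17.6% and 42.5% of genes at the same limit were called, and 15.9%, 29.6%, 14.4% and 37.1% of all genes. Their sum was 782, 633, 923 and 1098 FPKM over the 4 stages, and SLC25A3 alone made up 344, 262, 465 and 585 FPKM of it.

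SLC25A3 brings phosphate into mitochondria for ATP synthesis. Its libraries were at 253 to 268 FPKM in APLNR+, 453 to 477 FPKM in CD31+CD34+ and 573 to 601 FPKM in CD43+ cells, with no overlap. Its changes at these steps, 0.83 (SE 0.08, adjusted p = 1.98e-06) and 0.33 (SE 0.08, adjusted p = 0.00474), were under 2-fold. SLC25A5, a carrier that exchanges ADP for ATP, was at 125, 137 and 134 FPKM in H1 libraries and at 221, 239 and 228 FPKM in CD43+ libraries (0.79, SE 0.10, adjusted p = 1.33e-05). Its paralog SLC25A4 was at 17.2, 13.5 and 14.2 FPKM in H1 libraries and at 4.71, 5.54 and 5.61 FPKM in CD43+ libraries, with no test because the H1 level made it a member. The ratio of SLC25A5 to SLC25A4 was 8.95 ± 1.49, 12.1 ± 1.4, 18.2 ± 1.4 and 43.6 ± 3.2 (SD, n = 3) over the 4 stages. SLC25A5 shares 3.74% of its 50-base stretches with other genes. SLC25A6, the remaining common paralog, is listed at 0 throughout, so the pair is not the whole set.

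SLC25A1, the citrate carrier that supplies lipid synthesis, was at 50.5 to 58.1 FPKM in APLNR+ libraries, at 116, 122 and 105 FPKM in CD31+CD34+ libraries and at 47.9, 60.0 and 43.7 FPKM in CD43+ libraries. It rose by 1.04 (SE 0.12, adjusted p = 5.3e-06) and fell by 1.17 (SE 0.12, adjusted p = 3.75e-06). The rise lost its call without APLNR replicate 3 (0.98), without CD31CD34 replicate 2 (0.99) and under quantile normalization (0.82). SLC25A11, the oxoglutarate carrier of the malate-aspartate shuttle, rose from 23.0 ± 2.2 FPKM in H1 to 60.7 ± 7.1 FPKM in CD43+ cells (1.36, SE 0.12, adjusted p = 3.98e-07). Of the 4 enzymes of that shuttle read here, MDH1 was lowered between H1 and CD43+ cells (-1.87, SE 0.11, adjusted p = 1.10e-08), while MDH2 (0.74, SE 0.09), GOT1 (0.49, SE 0.17) and GOT2 (0.08, SE 0.22) were not called. Over the 12 mitochondrial partners read here, 2 were raised and 1 lowered at the second step, 1 was raised at the third, and 1 was raised and 1 lowered between H1 and CD43+ cells. At the first step limma called 0, with 2 higher and 4 lower at an unadjusted p under 0.05.

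SLC25A24, a calcium-regulated carrier of ATP-Mg and phosphate, was highest in APLNR+ libraries, at 12.2, 13.4 and 13.8 FPKM against 4.80 to 7.08 FPKM in all others, and that stage made it a member. The ornithine carrier SLC25A15 stayed at 12 to 14.6 FPKM in stage means. SLC25A10, the dicarboxylate carrier, was at 7.71 to 11.9 FPKM and is uncertain, since 41.2% of its 50-base stretches are shared with AC139530.2.

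The ADP/ATP carriers differed in direction between H1 and CD43+ cells, and the 250 bases before the annotated start of each are shown for that contrast, from RefSeq on GRCh38.p14. The deposited values were made on hg19, so these coordinates describe the reference and not the files. Capitals mark matches to 4 short motifs searched on both strands: the C/EBP-ATF element TGATGNAA, the GATA site AGATAA, the E-box CACGTG and the antioxidant response core TGACNNNGC. SLC25A5 (chrX:119468194-119468443, plus strand) holds 1 antioxidant response match, and SLC25A4 (chr4:185143016-185143265, plus strand) holds 1 GATA match.
SLC25A5: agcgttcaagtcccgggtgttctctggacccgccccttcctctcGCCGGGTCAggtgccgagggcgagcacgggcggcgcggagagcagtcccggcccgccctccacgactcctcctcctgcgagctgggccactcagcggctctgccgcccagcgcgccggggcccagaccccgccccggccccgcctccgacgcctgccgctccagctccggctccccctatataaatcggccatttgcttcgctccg
SLC25A4: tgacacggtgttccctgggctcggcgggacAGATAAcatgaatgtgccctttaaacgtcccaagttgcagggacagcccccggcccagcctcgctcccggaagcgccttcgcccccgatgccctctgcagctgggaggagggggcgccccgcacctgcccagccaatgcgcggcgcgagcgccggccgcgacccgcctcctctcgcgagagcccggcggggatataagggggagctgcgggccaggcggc

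Such windows were found for 68 of the 78 members, 121 windows in all, some of them overlapping starts of 1 gene. Among them 3.31% held the C/EBP-ATF element, 4.96% the GATA site, 14% the E-box and 16.5% the antioxidant response core. Among all 35116 windows of the same length the shares were 3.14%, 9.17%, 6.34% and 10.9%. A match describes letters alone, and members were not compared with promoters of other expressed genes.

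Inorganic ion carriers were highest as a sum in CD31+CD34+ cells, at 316 FPKM against 142, 137 and 153 FPKM in the other stages, and SLC20A1 made up more of this than any other member. Of the 7 members, 1 was raised and 1 lowered at the second step, and 2 were lowered at the last. Either count was 28.6% of the class, where 38.6% and 17.6% of genes at the same limit were called, and 29.6% and 14.4% of all genes. SLC20A1 (PiT-1), a sodium-coupled phosphate importer, was at 34.6, 37.1 and 37.1 FPKM in H1 libraries and at 31.0, 35.7 and 34.3 FPKM in APLNR+ libraries, which overlap. It was at 158, 180 and 172 FPKM in CD31+CD34+ libraries and at 54.7, 56.6 and 58.4 FPKM in CD43+ libraries, apart from all others. The rise was 2.31 (SE 0.08, adjusted p = 4.03e-10) and the fall -1.57 (SE 0.08, adjusted p = 1.78e-08).

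Its paralog SLC20A2 (PiT-2) was at 15.7, 13.2, 19.6 and 14.2 FPKM in stage means and was not called. The ratio of SLC20A1 to SLC20A2 was 2.33 ± 0.30, 2.59 ± 0.49, 8.75 ± 0.58 and 3.99 ± 0.16 (SD, n = 3) over the 4 stages. The window before the single annotated start of SLC20A1 (GRCh38.p14, chr2:112645689-112645938, plus strand) is shown because its levels in CD31+CD34+ libraries stood apart from all others, and capitals mark 1 E-box match and 2 antioxidant response matches.
SLC20A1: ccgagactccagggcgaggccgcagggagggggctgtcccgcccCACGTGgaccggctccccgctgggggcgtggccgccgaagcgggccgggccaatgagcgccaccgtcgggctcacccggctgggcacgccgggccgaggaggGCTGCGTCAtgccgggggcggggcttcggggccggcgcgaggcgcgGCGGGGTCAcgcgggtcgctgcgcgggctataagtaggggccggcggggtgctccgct

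SLC12A4 (KCC1), which lets potassium and chloride out of cells, was at 9.70 to 10.8 FPKM in H1, 15.5 to 19.1 FPKM in APLNR+, 23.3 to 26.7 FPKM in CD31+CD34+ and 4.04 to 6.44 FPKM in CD43+ libraries. No stages overlapped, and the last step was -2.02 (SE 0.14, adjusted p = 1.6e-07). SLC4A7, a sodium bicarbonate carrier that helps set pH, was at 19.2 to 32.2 FPKM in H1 and APLNR+ libraries and at 6.00 to 8.65 FPKM in the later ones, a fall of 1.37 from APLNR+ to CD31+CD34+ cells (SE 0.13, adjusted p = 1.12e-06). The anion exchanger SLC4A2 had its highest mean in CD31+CD34+ cells, 45.5 FPKM, and was not called.

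Of the 9 carriers of vitamins, choline, lipids and heme, 4 were raised from APLNR+ to CD31+CD34+ cells, or 44.4%, where 12.5% of all genes and 17.4% of genes at the same limit were raised. At that step limma lowered 0 of them, also at an unadjusted p under 0.05. Their sum went from 136 to 249 FPKM. At the last step 2 were raised and 1 lowered, or 33.3%, where 17.6% of genes at the same limit and 14.4% of all genes were called.

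SLC48A1 (HRG1), which moves heme out of lysosomes, was at 3.11, 2.82 and 3.14 FPKM in H1 libraries and 2.88, 2.55 and 2.80 FPKM in APLNR+ libraries. It was at 11.9, 11.7 and 10.9 FPKM in CD31+CD34+ libraries and at 23.2, 26.4 and 22.9 FPKM in CD43+ libraries. The rises were 1.74 (SE 0.09, adjusted p = 7.53e-09) and 1.01 (SE 0.09, adjusted p = 1.48e-06). The second was at the 2-fold limit and lost its call without CD31CD34 replicate 3 (0.98) or CD43 replicate 2 (0.95). Erythroid markers rose in the same libraries, and their part was not tested.

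SLC27A3, a fatty acid transport protein with acyl-CoA synthetase activity, was at 6.01 to 8.84 FPKM in H1 and APLNR+ libraries, at 34.0, 36.7 and 38.7 FPKM in CD31+CD34+ libraries and at 18.4, 17.9 and 12.3 FPKM in CD43+ libraries. It rose by 2.15 (SE 0.16, adjusted p = 1.94e-07) and fell by 1.14 (SE 0.16, adjusted p = 8.49e-05), the latter not called without CD43 replicate 3 (-0.97). Its difference between H1 and CD43+ cells was 1.05 (SE 0.16, adjusted p = 7.62e-05) and lost its call without H1 replicate 2 (0.94), CD43 replicate 1 (0.95) or CD43 replicate 2 (0.97). SLC27A5, a relative that acts on bile and fatty acids, had its highest libraries in CD43+ cells, at 33.1, 35.8 and 31.8 FPKM against 16.7, 18.4 and 13 FPKM in CD31+CD34+ cells (1.03, SE 0.17, adjusted p = 0.000237). Its call was lost without CD31CD34 replicate 3 (0.90) or CD43 replicate 2 (0.99).

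The riboflavin carrier SLC52A2 and the choline transporter-like SLC44A2 were the other genes raised from APLNR+ to CD31+CD34+ cells, from 19.4 to 44.7 FPKM (1.16) and from 17.6 to 41.7 FPKM (1.20). SLC5A6, which takes up biotin and pantothenate, was the highest of the class and stayed at 51.6, 40.6, 50.5 and 45.7 FPKM. SLC44A1, the related choline carrier, stayed at 19.4, 23.8, 22.9 and 22.5 FPKM. Both were among the members with the smallest range of stage means.

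Of the 7 carriers of nucleosides, nucleobases and nucleotide sugars, 1 was raised and 1 lowered at the first step, 2 raised and 1 lowered at the second, and 1 raised and 2 lowered between H1 and CD43+ cells. That was 28.6%, 42.9% and 42.9% of the class. Genes at the same limit were called at 16.1%, 38.6% and 42.5%, and all genes at 15.9%, 29.6% and 37.1%. At the third step limma called 0, with 1 higher and 0 lower at an unadjusted p under 0.05. SLC29A1 (ENT1), which passes nucleosides down their gradient, was at 35.6, 51.5 and 51.1 FPKM in H1 libraries and at 4.98, 7.07 and 6.03 FPKM in APLNR+ libraries, the greatest fall of any member at that step (-2.74, SE 0.19, adjusted p = 1.21e-07). It was at 19, 27.3 and 25.3 FPKM in CD31+CD34+ libraries (1.82, SE 0.19, adjusted p = 2.75e-06) and at 22.9, 32.3 and 29.6 FPKM in CD43+ libraries, which overlap. In each stage its lowest value was in replicate 1, the shallowest library.

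SLC43A3, a carrier of purine nucleobases, was at 8.22, 10.2 and 9.05 FPKM in H1 libraries, 3.91, 4.34 and 4.03 FPKM in APLNR+, 20.02, 25.2 and 22.3 FPKM in CD31+CD34+ and 39.8, 46.8 and 42.7 FPKM in CD43+ libraries. The rise from APLNR+ to CD31+CD34+ cells was 2.20 (SE 0.11, adjusted p = 5.24e-09), and the steps on either side were -0.99 and 0.91, just under 2-fold. It is uncertain, because 24.3% of its 50-base stretches occur in other annotated genes, AP000781.2 and AC097717.1. SLC35A3, which carries UDP-N-acetylglucosamine into the Golgi, was at 15.6, 13.1 and 15 FPKM in APLNR+ libraries, at 3.20 to 5.19 FPKM in H1 libraries and at 1.12 to 2.03 FPKM in all later ones. APLNR+ cells made it a member, so these values carry no test, apart from a difference of -1.02 between CD43+ and H1 cells (SE 0.15, adjusted p = 6.65e-05) that fell short of 2-fold under upper-quartile scaling (-0.93), quantile normalization (-0.85) and with replicates 2 and 3 alone (-0.91). It also fell short without H1 replicate 1 (-0.85) or CD43 replicate 2 (-0.92).

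Among sugar carriers, SLC37A1, a sugar phosphate exchanger of the endoplasmic reticulum, had the widest range. It was at 7.84, 7.92 and 7.5 FPKM in H1 libraries and at 1.65, 1.30 and 1.17 FPKM in APLNR+ libraries (-1.89, SE 0.10, adjusted p = 1.7e-08). It was at 2.92, 3.66 and 2.91 FPKM in CD31+CD34+ libraries and at 28.5, 30.7 and 30.7 FPKM in CD43+ libraries, the level that made it a member. SLC2A6 (GLUT6), a lysosomal hexose carrier, was at 17.7, 19.7 and 16.5 FPKM in CD31+CD34+ libraries and at 2.83 to 7.86 FPKM in all others, with no test of that stage. SLC50A1, the only SWEET family sugar carrier in humans, was at 22.1 to 26.6 FPKM in H1 and APLNR+ libraries and at 43.6 to 56.1 FPKM in the later ones, and was called from H1 to CD43+ cells (1.08, SE 0.11, adjusted p = 1.77e-06).

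Both carriers of the creatine and taurine class were lowered at the last step, where 11.2% of genes at the same limit and 8.79% of all genes were lowered. SLC6A8, which takes up creatine, was at 12.7, 11.5 and 9.999 FPKM in H1 libraries, 10.9, 11.3 and 9.93 FPKM in APLNR+ libraries and 7.33, 9.58 and 8.54 FPKM in CD31+CD34+ libraries, then at 1.84, 2.43 and 1.38 FPKM in CD43+ libraries (-1.73, SE 0.14, adjusted p = 8.44e-07). It shares 9.3% of its 50-base stretches with other annotated genes, the pseudogene SLC6A10P among them. SLC6A6, the taurine carrier, was at 33.1 to 34.8 FPKM in CD31+CD34+ libraries and at 13.6, 13.6 and 15.2 FPKM in CD43+ libraries (-1.20, SE 0.08, adjusted p = 9.34e-08). GAMT, the enzyme that completes creatine, was at 7.46, 5.66, 16.6 and 29.7 FPKM in the 4 stages, and rose from APLNR+ to CD31+CD34+ cells (1.41, SE 0.12, adjusted p = 4.49e-07). CKB, the creatine kinase of the cytosol, was at 127, 79.5, 238 and 265 FPKM. Of the 11 genes of creatine, folate and glutathione use read here, 3 were lowered at the first step, 3 raised and 2 lowered at the second, 1 raised at the third, and 3 raised and 2 lowered between H1 and CD43+ cells.

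Below the 10 FPKM limit, 114 of the 251 other SLC genes were tested. Raised and lowered numbered 7 and 11 at the first step, 6 and 11 at the second, 9 and 9 at the third, and 15 and 23 between H1 and CD43+ cells. Those called were 15.8%, 14.9%, 15.8% and 33.3% of the 114, where 15.9%, 29.6%, 14.4% and 37.1% of all genes were called. For 70 of the 78 members under 5% of the 50-base stretches of their transcripts were shared with other annotated genes.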

How the data were processed

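Bulk RNA was sequenced in 12 libraries, 3 for each of H1, APLNR+, CD31+CD34+ and CD43+ cells, from total RNA with an Illumina TruSeq kit. The values used are the FPKM values the authors deposited, 1 column per library. The submitters' processing notes name BWA, Bowtie and RSEM, with no roles or versions, and build hg19. Annotation, strand setting and any scaling between libraries are not given in the sources used here. FPKM removes read counts, so absolute depth is unknown. Relative depth was estimated from the spacing of low values. A symbol on several lines was represented by the line with the highest mean.

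Genes at 1 FPKM or more in at least 3 libraries were tested with limma 3.58.1 in R 4.3.3 on log2(FPKM + 1), with the 4 stages in 1 model, trended empirical Bayes and Benjamini-Hochberg adjustment over all genes of a comparison. Fold changes of low genes are understated on this scale. Calls needed an adjusted p under 0.05 and 2-fold. The fit was tested on simulated data. Means and ratios were computed in Python 3.11.15 with pandas 2.3.3. Shared 50-base stretches were counted over GENCODE release 29 transcripts on GRCh38, a different build from that of the files.

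The members, substrate classes and gene lists were chosen with earlier results of these data known, and classes rest on general knowledge of the families. Members described in full were the 8 greatest rises and 8 greatest falls called at each comparison, the 10 highest means, the highest and the most variable member of each class, and the 5 least variable. Other members were named after their values were seen, to complete a class or a pair. The values of 1 counted member are not reported here. Deviations of same-number libraries correlated over 0.1 between CD43+ cells and both H1 and CD31+CD34+ cells. Libraries of different numbers also passed 0.1 there (r of 0.13 and 0.16), so pairing by number was not established. No label states a shared run, and a replicate block changed no call of a named member. Alternatives changed the pseudocount, filter, scaling, replicate block, libraries, minimum change, repeated symbols and the FPKM limit.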

Additional observations from a re-analysis of the deposited data

How the results depend on the processing

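No member described in full changed direction past a call under any setting run, and the other members and the related genes were not put through this check. Of 180 pairs of a named member and a comparison, upper-quartile scaling ended 2 calls, quantile normalization 4 and replicates 2 and 3 alone 1. Leaving out single libraries ended 15 over 2160 refits. The members that lost a call are named with their values in the report, and the cause was not tested. Calls were also gained, 3 under quantile normalization, 5 with replicates 2 and 3 alone and 7 with a pseudocount of 0.1. Leaving out single libraries added 14 and upper-quartile scaling 0. These gains are not given member by member. With no minimum change, 19 members were raised and 28 lowered from H1 to APLNR+ cells, 41 and 23 from APLNR+ to CD31+CD34+ cells, 17 and 37 from CD31+CD34+ to CD43+ cells, and 31 and 32 from H1 to CD43+ cells. With a minimum of 1.5-fold, 10 and 19, then 28 and 20, were called at the first steps, 24 were lowered at the last step and 24 raised from H1 to CD43+ cells. A limit of 5 FPKM gave 133 members, with 8 raised and 11 lowered at the first step, 19 lowered at the second, 11 raised at the third, and 20 raised and 30 lowered from H1 to CD43+ cells. A limit of 20 FPKM gave 48 members, with 2 raised at the first step, 7 lowered at the second and 11 lowered from H1 to CD43+ cells. A pseudocount of 0.1 gave 8 lowered at the first step.

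The median change of the members from APLNR+ to CD31+CD34+ cells was 0.27 under quantile normalization, 0.12 at a limit of 5 FPKM and 0.42 at 20 FPKM. From H1 to CD43+ cells it was 0.069 under upper-quartile scaling, 0.090 under quantile normalization and -0.13 at a limit of 5 FPKM, and from H1 to APLNR+ cells it was 0.019 under upper-quartile scaling, so neither of these medians has a settled sign. Scaling also moved the balance of all genes: from H1 to APLNR+ cells 1232 were raised and 1131 lowered as deposited and 1352 and 938 under upper-quartile scaling, and from H1 to CD43+ cells 2163 and 3338 became 2506 and 2827 under quantile normalization. Leaving out single libraries gave 3 to 4 raised and 4 to 6 lowered at the first step, 13 to 16 and 11 at the second, 4 to 7 and 10 to 12 at the third, and 10 to 12 and 16 to 18 from H1 to CD43+ cells. The medians then ran from -0.10 to -0.05, 0.29 to 0.44, -0.27 to -0.18 and -0.14 to 0.0002. Deviations from the stage means correlated over 0.1 in 12 of 18 same-number pairs (r from -0.02 to 0.43). All 6 pairs of replicate 1 libraries did so (0.20 to 0.43), so replicate 1 deviated together across stages. Replicate 1 against other numbers gave -0.40 to -0.06, which is no separate evidence because deviations cancel within a stage. All 3 same-number pairs passed 0.1 between H1 and CD43+ and between CD31+CD34+ and CD43+ cells, but not in the other comparisons. Different-number pairs reached 0.13 and 0.16 in these 2 comparisons and up to 0.29 elsewhere. With the replicate number as a block, 4 members were raised and 4 lowered at the first step, 14 and 11 at the second, 6 and 12 at the third, and 12 and 17 from H1 to CD43+ cells, and it changed no call of a named member. FPKM values hold no counts, so counting error could not be given.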
